A study of Mus musculus with 12 samples.

Results

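The genes described here mark endothelial cells, the inner lining of blood vessels, and the arterial or venous position of those cells. There are 36: 19 shared by endothelium in general (pan-endothelial), 8 arterial and 9 venous. They were taken from a named list, and each was read from the probe set annotated to that gene alone with the highest mean over the 12 arrays. Such a probe set existed for 33 of the 36. Ly6c1 was measured only together with Ly6c2, and Ly6a and Slc38a11 are not named in the annotation used here. Of the 33, 30 passed a filter on low values (at least 3 of 12 arrays above 3.27, the median of all values), all of them on every array: 17 pan-endothelial, 7 arterial and 6 venous genes, out of 11716 genes tested.

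The arrays, whole-genome mouse arrays from Affymetrix, were hybridised with RNA from microvascular fragments, which are pieces of small brain vessels with their lining, wall cells and attached tissue. The 4 groups had 3 arrays each: cerebellar and cerebral fragments of Notch3 knockout mice, then cerebellar and cerebral fragments of wildtype littermate controls. All mice were C57BL/6 and 2 months old, and no treatment is recorded. A conventional knockout mouse lacks the gene in all cells and throughout development, and whether this line is of that kind is not stated. The sources used here do not describe the construction of the knockout line, the part of the gene removed, or the isolation of the fragments. Arrays with the same number in both regions of a genotype were taken as 1 mouse (mice 1 to 3 of each genotype), so that there were 6 mice.

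All values are log2 expression values as deposited, so a difference of 1 is a doubling. Array medians lay between 3.24 and 3.302. Correlations between arrays over the 11716 genes tested were 0.991 to 0.996 within groups and 0.975 to 0.994 between groups. The brighter Notch3 probe set lay between 2.48 and 3.58 on the 6 knockout arrays, against 10.84 to 12.02 on the 6 control arrays, as the labels say. Neutrophil markers were near background on all arrays: 5 of 6 had a probe set, and none passed the filter (means of a gene over the 12 arrays 2.13 to 2.86, highest single value 3.15). Choroid plexus markers were present, with Ttr, a transport protein made by that tissue, at a mean of 16.18.

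Endothelial cells carry a common set of junction proteins, surface mucins and receptors, and their other genes change stepwise along the vessel tree from artery through capillary to vein. Arterial identity is tied to Notch signalling inside endothelial cells. The ligand ephrin-B2 (Efnb2) on arterial cells and its receptor EphB4 (Ephb4) on venous cells keep the territories apart in development. Notch3 itself is a receptor of the smooth muscle cells and pericytes that wrap the vessel, and receives its ligands from the endothelium.

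Among the pan-endothelial genes, none passed the test between genotypes, and estimates lay close to 0. In cerebellar vessels the 17 log2 differences, knockout minus control, ran between -0.20 and 0.36 with a median of 0.12, and 14 were above 0. In cerebral vessels they ran between -0.20 and 0.22 with a median of 0.08, and 12 were above 0. The medians of all genes tested were 0.01 and -0.01. The widest 95% interval of these 17 genes reached 0.60 in cerebellar and 0.58 in cerebral vessels, so larger differences lay outside the intervals for all of them. Limma called none of the 30 genes of all classes in either region (Benjamini-Hochberg adjusted p under 0.05 over all 11716 genes), where it called 4.22% of all genes in cerebellar and 6.38% in cerebral vessels. An unadjusted p under 0.05 was reached by 6 genes in cerebellar vessels (16.8% of all genes) and by 3 in cerebral vessels (20.6% of all genes). With both regions of a mouse averaged, limma called 0 of 30 against 4.03% of all genes, and 5 had an unadjusted p under 0.05 (19.7% of all genes). In whole vessel fragments, fewer cells of a type and less RNA per cell cannot be told apart.

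The largest positive estimate among them was that of Ramp2, which pairs with Calcrl to form the receptor for adrenomedullin. Ramp2 was at 13.31, 13.41 and 13.62 in knockout cerebellar vessels, against 13.21, 13.12 and 12.94 in control cerebellar vessels. In cerebral vessels it was at 13.30, 13.55 and 13.62 in knockouts, against 13.29, 13.36 and 13.18 in controls. The groups were apart in the cerebellum and overlapped in the cerebrum. The differences were 0.36 (SE 0.11, limma adjusted p = 0.112) and 0.22 (SE 0.11, adjusted p = 0.301). Its partner Calcrl differed by -0.07 and -0.05.

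Cd34, a sialomucin of endothelial and progenitor cells, was at 14.12, 13.88 and 14.14 in knockout cerebellar vessels, against 13.79, 13.70 and 13.89 in control ones. Cerebral values were 14.16, 13.99 and 14.10 in knockouts, against 13.84, 13.85 and 13.97 in controls. The groups were apart in the cerebrum, and 1 knockout array reached into the control range in the cerebellum. Differences were 0.26 (SE 0.09, limma adjusted p = 0.146) in cerebellar and 0.20 (SE 0.09, adjusted p = 0.224) in cerebral vessels.

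Emcn, another sialomucin and a marker of capillaries and veins, stood at 13.12, 12.94 and 12.96 in knockout cerebellar vessels, against 12.73, 12.80 and 12.81 in control ones, a difference of 0.23 (SE 0.07, limma adjusted p = 0.117). Every knockout value was above every control value there. In the cerebrum the difference was 0.11 and the groups overlapped. Clec14a, a C-type lectin that binds the matrix protein Mmrn2, had the largest negative estimates of the class, -0.20 in both regions. Its values were 12.37, 12.39 and 11.94 in knockout cerebellar vessels against 12.33, 12.26 and 12.69 in control ones, and 12.56, 12.56 and 12.22 in knockout cerebral vessels against 12.39, 12.75 and 12.80 in control ones. Groups overlapped in both regions, and the second Clec14a probe set gave -0.14 and 0.01. The estimate depended on single mice: over mice it was -0.20, but -0.07 without knockout mouse 3 and -0.09 without control mouse 3.

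The remaining 12 genes of the class lay between -0.06 and 0.22. The junction proteins Pecam1, Cdh5 and Esam differed by 0.05, 0.22 and 0.13 in the cerebellum, and by 0.08, 0.11 and 0.07 in the cerebrum. Eng, a co-receptor for TGF-beta family ligands, and Robo4, a guidance receptor, differed by 0.16 and 0.07 in the cerebellum and by -0.00 and -0.03 in the cerebrum. The secreted protein Egfl7 differed by 0.15 and 0.13, with all 4 of its probe sets above 0 in both regions. The clotting protein Vwf differed by 0.12 and 0.17, the phosphatase Ptprb by 0.12 and 0.06, and the sialomucin Podxl by 0.08 and 0.12. The sphingosine 1-phosphate receptor S1pr1 differed by 0.02 and 0.11, Mmrn2 by -0.06 and 0.01, and the adhesion molecule Icam2 by 0.13 and -0.05.

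**Figure D1:**
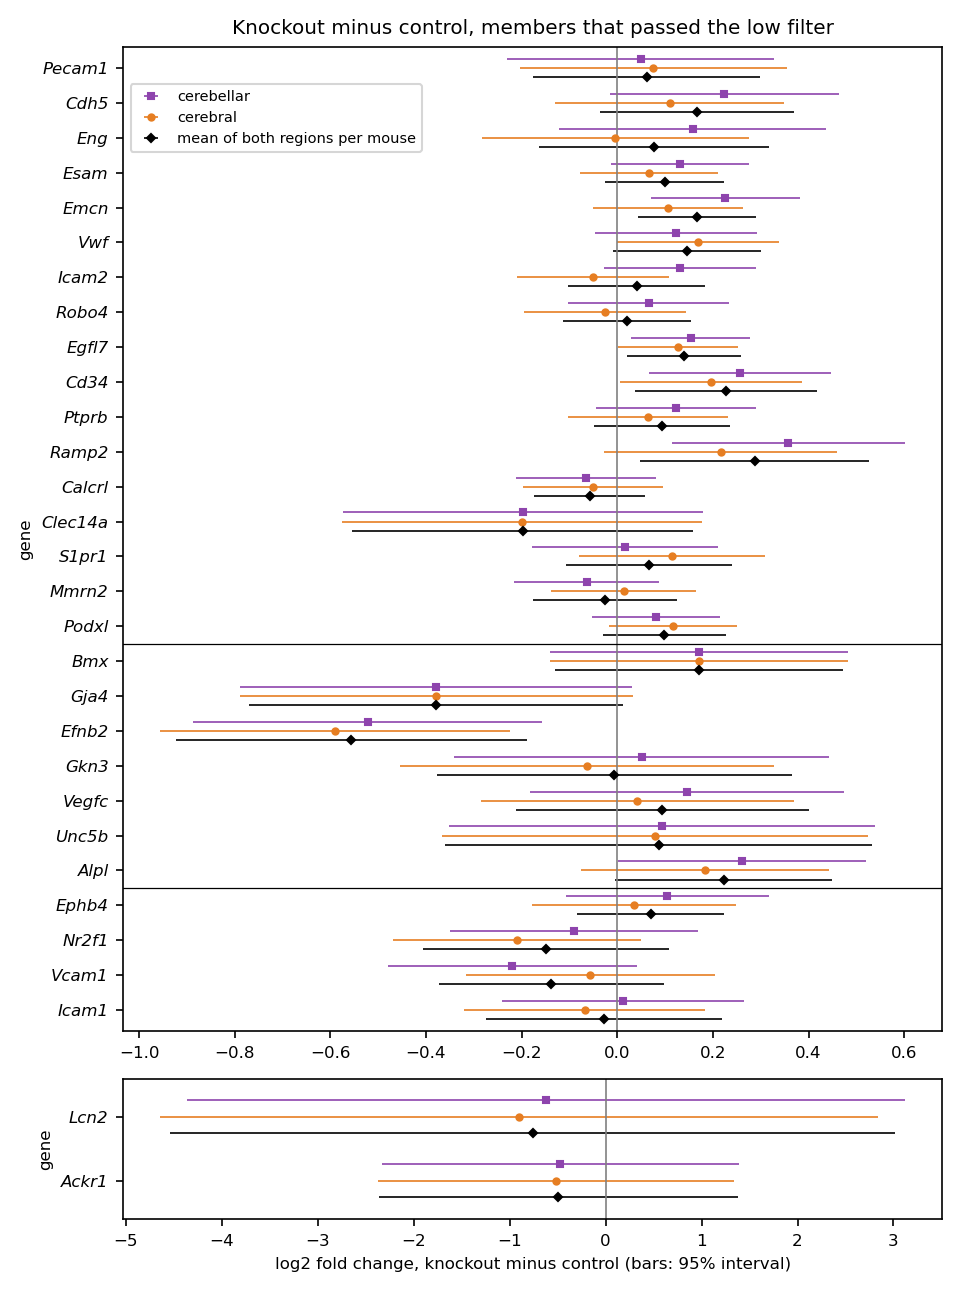
Log2 difference, knockout minus control (x axis), for each gene that passed the low filter (y axis), with limma 95% intervals as bars: cerebellar (squares), cerebral (circles) and mean of both regions per mouse (diamonds), n = 3 mice per genotype. Pan-endothelial genes lie between -0.20 and 0.36 in the 2 regions, Efnb2 and Gja4 lie lower in both, and the lower panel has a wider axis for Lcn2 and Ackr1.

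The arterial genes held the largest negative difference outside the 2 variable venous genes described below, that of Efnb2. Efnb2 was at 11.47, 10.93 and 10.94 in knockout cerebellar vessels, against 11.62, 11.63 and 11.66 in control cerebellar vessels. In cerebral vessels it was at 11.55, 11.12 and 10.97 in knockouts, against 11.71, 11.86 and 11.82 in controls. All knockout values lay below all control values in both regions, and knockout mouse 1 was closest to the controls in each. The difference was -0.52 (SE 0.16, limma adjusted p = 0.123) in cerebellar and -0.59 (SE 0.16, adjusted p = 0.0635) in cerebral vessels, and -0.56 (SE 0.15, adjusted p = 0.115) over mice. None of these passed the threshold, and on leaving out 1 array or mouse 10 of 12 cerebral, 11 of 12 cerebellar and 5 of 6 runs over mice called none of the 30 genes. The estimates then reached down to -0.47 in cerebral vessels without knockout mouse 3 (adjusted p = 0.197) and -0.45 over mice without it (0.281). With the arrays of a mouse as a random block the cerebral adjusted p was 0.0366, without the cerebral array of knockout mouse 1 the cerebral difference was -0.76 (adjusted p = 0.0254), and without that mouse the difference over mice was -0.73 (adjusted p = 0.0109). The second Efnb2 probe set gave -0.48 and -0.34 (adjusted p = 0.198 and 0.327 over all probe sets), with knockout cerebral mouse 1, at 9.86, inside the control range of 9.79 to 9.96.

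Gja4, a gap junction connexin listed here as arterial, was at 11.85, 11.43 and 11.92 in knockout cerebellar vessels, against 11.85, 12.08 and 12.41 in control ones. Cerebral values were 11.38, 11.05 and 11.40 in knockouts, against 11.39, 11.87 and 11.72 in controls. Knockouts had the lowest value of each region, but the groups overlapped in both. The difference was -0.38 (SE 0.18) in each region, with limma adjusted p = 0.340 and 0.283. In cerebellar vessels it was -0.23 without the array of knockout mouse 2 or that of control mouse 3, and over mice it was -0.25 without knockout mouse 2. The related connexin Gja5 was below the filter on all 12 arrays (2.20 to 2.23).

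Of the other arterial genes, Alpl, tissue-nonspecific alkaline phosphatase, was at 10.24, 9.79 and 9.88 in knockout cerebellar vessels against 9.75, 9.85 and 9.53 in control ones, and at 10.00, 9.89 and 9.91 in knockout cerebral vessels against 9.82, 9.72 and 9.71 in control ones. Knockouts were higher on every array in the cerebrum, and the differences were 0.26 and 0.18 (limma adjusted p = 0.297 and 0.424). Bmx, a tyrosine kinase, differed by 0.17 in both regions, and Unc5b, a netrin receptor, by 0.09 and 0.08. Gkn3, a gastrokine that marks arterial endothelium in mouse brain, differed by 0.05 and -0.06. Vegfc, a growth factor ligand, had 3 probe sets that disagreed: the brightest gave 0.15 in cerebellar and 0.04 in cerebral vessels, while the other 2 gave -0.30 and -0.18, and -0.37 and -0.30. Limma called none of these 5 genes in either region.

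**Figure D2:**
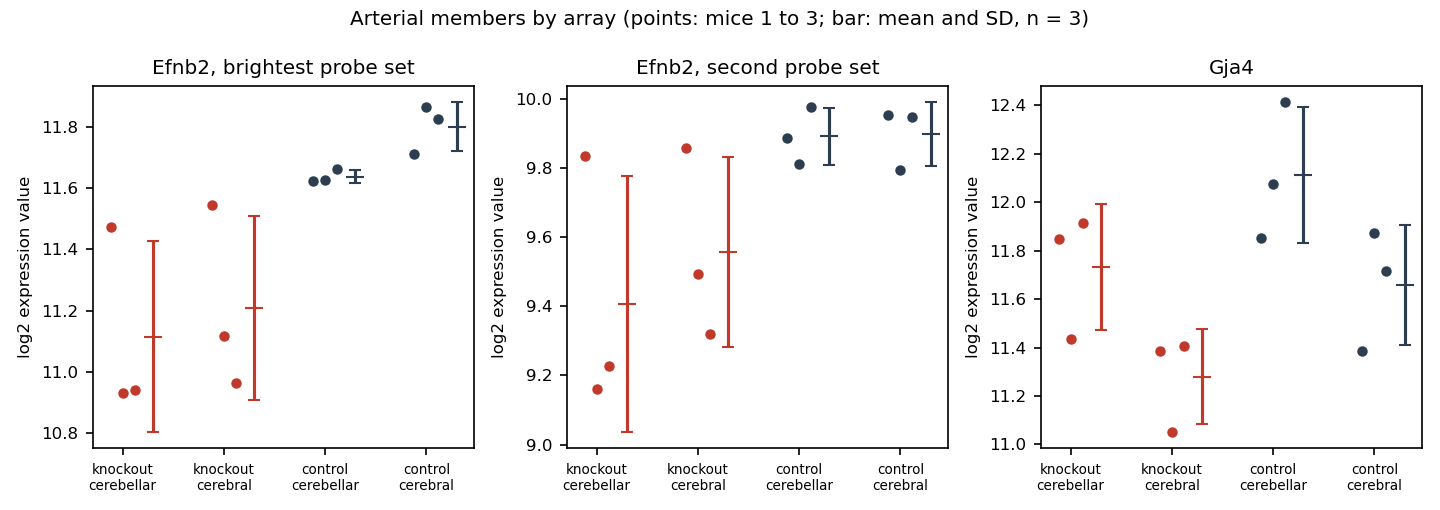
Log2 expression value (y axis) of Efnb2 by its brightest and its second probe set and of Gja4 in the 4 groups (x axis), 1 point per array and the mean with SD beside (n = 3). Knockout Efnb2 lies at 10.93 to 11.55 by the brightest probe set and control Efnb2 at 11.62 to 11.86, while Gja4 overlaps between genotypes and lies higher in cerebellar than in cerebral vessels.

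Of the venous genes, none was called between genotypes. Nr2f1, a nuclear receptor of the COUP-TF family, was at 10.96, 11.14 and 10.79 in knockout cerebellar vessels against 10.98, 11.14 and 11.04 in control ones, and at 10.63, 10.75 and 10.49 in knockout cerebral vessels against 10.65, 11.03 and 10.82 in control ones. The groups overlapped and the differences were -0.09 and -0.21 (limma adjusted p = 0.781 and 0.354). Vcam1, an adhesion molecule for leukocytes, was at 14.10, 13.93 and 13.78 in knockout cerebellar vessels against 14.04, 14.05 and 14.39 in control ones, and differed by -0.22 there and by -0.06 in the cerebrum. Icam1, of the same function, differed by 0.01 and -0.07, and Ephb4 by 0.11 and 0.03. Sele and Selp, the selectins that capture leukocytes, were below the filter on all 12 arrays by each of their probe sets, Sele at 2.15 to 2.18 and Selp, by its brightest, at 2.74 to 2.76. Lcn2 and Ackr1 had differences of -0.62 and -0.47 in cerebellar and -0.90 and -0.52 in cerebral vessels, with intervals so wide that no direction can be given: the cerebral interval of Lcn2 ran from -4.64 to 2.84.

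Complete separation of the 3 knockout from the 3 control arrays was seen for 4 of the 30 genes in cerebellar vessels (Ramp2, Emcn and Egfl7 higher, Efnb2 lower) and for 7 in cerebral vessels (Vwf, Egfl7, Cd34, Ptprb, Podxl and Alpl higher, Efnb2 lower). Of all genes, 22.1% were separated in the cerebellum and 24.4% in the cerebrum, so the counts were at or under the background. Over mice, 8 of 30 were separated (7 higher, 1 lower), against 26.3% of all genes. Egfl7 and Efnb2 were separated in both regions.

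A dependence of the knockout difference on the region was tested by limma's interaction, which called 0 of 30 genes (0.0427% of all genes) and gave none an unadjusted p under 0.05 (4.66% of all genes). The largest interactions among pan-endothelial genes were those of Icam2 (0.18, 95% interval -0.04 to 0.41), Eng (0.16) and Ramp2 (0.14). Icam2 was at 13.06, 12.97 and 13.21 in knockout cerebellar vessels against 12.97, 12.90 and 12.98 in control ones, and at 12.97, 13.02 and 13.09 in knockout cerebral vessels against 13.06, 13.16 and 13.02 in control ones. For Efnb2 the interaction was 0.07 (-0.45 to 0.58) and for Gja4 -0.00 (-0.58 to 0.58). For Gja4 this unpaired interval takes in dependences as large as its own difference of -0.38. Gkn3 (0.11), Vegfc (0.10), Alpl (0.08), Lcn2 (0.28), Vcam1 (-0.16) and Nr2f1 (0.12) were the largest of their classes.

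Other endothelial genes, from lists that do not overlap the 36, were tested in the same fit, and their shares called stand beside those of all genes as a description. In cerebellar vessels limma called 14.3% of other endothelial, 11.8% of other arterial, 10.0% of capillary and 10.0% of other venous genes, against 4.22% of all genes. In cerebral vessels the shares were 4.76%, 0%, 0% and 10.0%, against 6.38% of all genes, and each share rests on 3 genes or fewer. Of 21 other endothelial genes, Ets1, a transcription factor, fell by 1.02 in cerebellar (limma adjusted p = 0.00166) and by 0.92 in cerebral vessels (adjusted p = 0.00308). Sox18 and Sox17, related transcription factors of endothelium, rose in cerebellar vessels by 0.47 (adjusted p = 0.00831) and 0.30 (adjusted p = 0.0259), and Sox18 also over mice (0.36, adjusted p = 0.0497). Of 17 other arterial genes, Notch4, a Notch receptor of endothelium, rose by 0.50 in cerebellar vessels (limma adjusted p = 0.00774). Bmp4, a secreted growth factor, fell by 0.70 there (limma adjusted p = 0.0368). None of the 17 was called in cerebral vessels, where Dll4, an endothelial Notch ligand, differed by -1.05 (SE 0.29, adjusted p = 0.0623). Of 10 capillary genes, only Tfrc, the transferrin receptor, was called, in cerebellar vessels (0.61, adjusted p = 0.0281). Of 10 other venous genes only Osmr, the oncostatin M receptor, was called, and it fell by 0.35 in cerebellar (adjusted p = 0.0238) and by 0.42 in cerebral vessels (adjusted p = 0.00723). The medians of these 4 lists lay between -0.13 and 0.10 in cerebellar and between -0.21 and 0.06 in cerebral vessels.

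Genes of the other vessel and brain cells moved between the genotypes on the same arrays, and their part in the endothelial values was not tested. RNA of whole fragments does not give the cell of origin, and this holds for Efnb2 and Gja4 too. Of 10 smooth muscle genes 8 fell in each region (medians -0.99 and -0.94). Their mean level, relative to the mean of 12 arrays, lay at -0.59 to -0.24 in knockout cerebellar and -0.67 to -0.40 in knockout cerebral vessels, against 0.36 to 0.78 in control cerebellar and 0.31 to 0.61 in control cerebral vessels. Of 9 pericyte genes 4 fell in cerebellar and 5 in cerebral vessels (medians -0.26 and -0.48). Of 11 microglia genes none was called in cerebellar vessels (median 0.29), and 5 rose in cerebral vessels (median 0.85). The mean level of the 17 pan-endothelial genes was -0.0599 to 0.0856 in knockout cerebellar and 0.0412 to 0.0794 in knockout cerebral vessels, against -0.107 to -0.0616 in control cerebellar and -0.0411 to 0.0336 in control cerebral vessels. Every knockout array was thus above every control array of its region, by a small margin. The mean level of the 21 other endothelial genes did not separate the genotypes. It was -0.08 to 0.06 in knockout against -0.10 to -0.04 in control cerebellar vessels, and 0.01 to 0.08 against 0.03 to 0.06 in cerebral ones. The other arterial, capillary and other venous lists overlapped in both regions too. Markers of astrocytes, neurons, oligodendrocytes, platelets and choroid plexus had 0 calls between genotypes in either region, but some of their mean levels were apart. In cerebellar vessels astrocyte genes lay at 0.45 to 0.81 in knockouts against 0.04 to 0.35 in controls (median difference 0.51). Neuron genes lay at 0.14 to 0.24 against -0.28 to -0.20 there (median 0.43). Both overlapped in cerebral vessels, where platelet genes lay at -0.36 to -0.11 in knockouts against -0.10 to 0.20 in controls. Fibroblast genes had 1 higher in cerebellar vessels and 1 higher and 1 lower in cerebral ones, of 7. Of 9 immediate early genes 2 fell in each region. Their mean level lay at 0.32 to 0.52 in knockout against 0.61 to 0.95 in control cerebellar vessels. In cerebral vessels it lay at -0.94 to -0.69 in knockouts against -0.55 to -0.21 in controls. Of 9 genes of the NF-kappaB response 0 were called in cerebellar vessels, where mean levels overlapped, and 1 fell in cerebral vessels. Their mean level there lay at -0.73 to -0.62 in knockouts against -0.51 to -0.21 in controls.

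**Figure D3:**
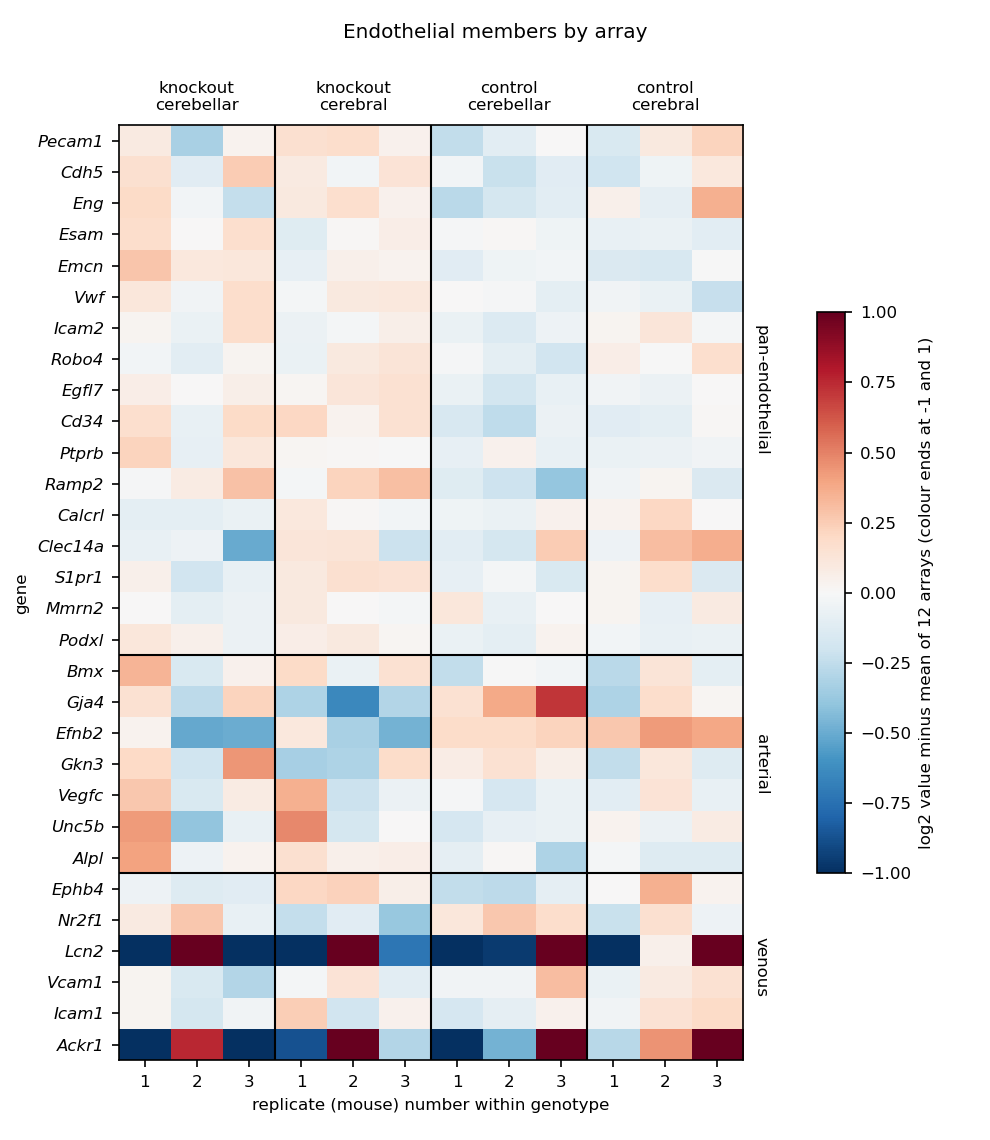
Log2 value minus the mean of 12 arrays (colour, ends at -1 and 1) for the 30 genes that passed the low filter (rows) on each array (columns, mice 1 to 3 of the 4 groups). Pan-endothelial rows span at most 0.86 over the 12 arrays, Efnb2 is lower in knockout columns, and Lcn2 and Ackr1 follow single mice rather than groups.

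Between the regions of the brain, 6 of the 30 genes differed within mice, of which 2 were arterial and 4 venous. Cerebellar vessels had higher Gja4 (0.45), Nr2f1 (0.28) and Gkn3 (0.24), and lower Ackr1 (-0.68), Lcn2 (-0.55) and Ephb4 (-0.29), cerebellar minus cerebral on the log2 scale. Of 7 arterial genes 2 were called as higher, and of 6 venous genes 1 was called as higher and 3 as lower. None of the 17 pan-endothelial genes was called, but this depended on the processing. Clec14a was called as lower with the 75th percentile filter (adjusted p = 0.0294), with the mean of its probe sets (0.034), with quantile normalisation (0.049) and by its other probe set, and Eng (0.0431) and S1pr1 were called as lower with the 75th percentile filter. The test was limma on the 6 within-mouse differences, averaged over genotypes. It called 21.3% of all genes, 11.6% as higher and 9.68% as lower, so 6 of 30 was near the background. The genes in all 6 mice on the same side of 0 numbered 11 of 30 (3 higher, 8 lower), against 25.1% of all genes.

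Gja4 was higher in the cerebellum by 0.46, 0.38 and 0.51 in knockout mice 1 to 3 and by 0.46, 0.20 and 0.69 in control mice 1 to 3. The mean was 0.45 (SE 0.07, limma adjusted p = 0.00403), a ratio of 1.37, and 0.45 in each genotype. Nr2f1 was higher by 0.33, 0.39 and 0.30 in knockout mice and by 0.33, 0.11 and 0.23 in control mice, a mean of 0.28 (SE 0.04, adjusted p = 0.00474). In all 6 mice the sign was the same for both genes. Nr2f1 is listed as venous here, so a venous and an arterial gene were higher in the cerebellum together.

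Gkn3 was at 13.42, 13.02 and 13.67 in cerebellar against 12.89, 12.92 and 13.40 in cerebral vessels of knockout mice 1 to 3, and at 13.30, 13.38 and 13.28 against 12.98, 13.33 and 13.09 in those of control mice. The regions overlapped in both genotypes when mice were set aside, but within each mouse the cerebellar value was the higher. Gkn3 was higher in the cerebellum by 0.53, 0.10 and 0.26 in knockout mice and by 0.32, 0.05 and 0.19 in control mice (mean 0.24, SE 0.07, limma adjusted p = 0.042), and its second probe set gave 0.33 (adjusted p = 0.0253). Ephb4 was at 7.44, 7.36 and 7.38 in cerebellar against 7.69, 7.71 and 7.54 in cerebral vessels of knockout mice, and at 7.24, 7.22 and 7.40 against 7.49, 7.84 and 7.52 in those of control mice. Every cerebellar value lay below every cerebral value of its genotype. Ephb4 differed by -0.25, -0.35 and -0.17 in knockout mice and by -0.25, -0.62 and -0.12 in control mice (mean -0.29, SE 0.07, adjusted p = 0.0263). These calls depended on single mice and on the processing. Without 1 of the mice other than knockout mouse 2, the adjusted p of Gkn3 was 0.0553 to 0.116, and without any 1 knockout mouse or control mouse 1 that of Ephb4 was 0.0535 to 0.0764. Both also lost the call without the low filter (Gkn3 0.0781, Ephb4 0.056), Gkn3 with Xist as a covariate (0.0514) and Ephb4 with quantile normalisation (0.0523).

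Ackr1, an atypical receptor that binds chemokines on venous endothelium, was lower in the cerebellum in every mouse, with differences of -0.61, -0.64 and -0.71 in knockout mice and -0.89, -0.92 and -0.30 in control mice. The mean was -0.68 (SE 0.09, limma adjusted p = 0.00226). Lcn2, a secreted lipocalin that binds bacterial siderophores, was lower in every mouse too, with differences of -0.41, -0.42 and -0.42 in knockout mice and -0.93, -1.003 and -0.15 in control mice, and a mean of -0.55 (SE 0.11, adjusted p = 0.0142). Control mouse 3 had the smallest difference for both genes.

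Of the pan-endothelial genes, the largest region differences were those of Clec14a (-0.22, SE 0.06, limma adjusted p = 0.0533), Eng (-0.21, SE 0.07, adjusted p = 0.0746), Pecam1 (-0.18, SE 0.07, adjusted p = 0.112) and S1pr1 (-0.16, SE 0.05, adjusted p = 0.0746). Over the 6 mice, Clec14a differed by -0.49 to -0.06, S1pr1 by -0.35 to -0.01 and Pecam1 by -0.50 to -0.01, so that all 3 were lower in the cerebellum in every mouse. Eng ranged between -0.46 and 0.09, with 5 mice below 0. The 17 differences lay between -0.22 and 0.10 with a median of -0.06, against -0.01 for all genes tested. Among arterial genes, Efnb2 (-0.13, adjusted p = 0.0724) and Unc5b (-0.12, adjusted p = 0.0964) were lower in all 6 mice without a call. Esam, Emcn, Vwf, Ptprb, Vegfc, Bmx, Alpl and Vcam1 lay between -0.06 and 0.10.

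**Figure D4:**
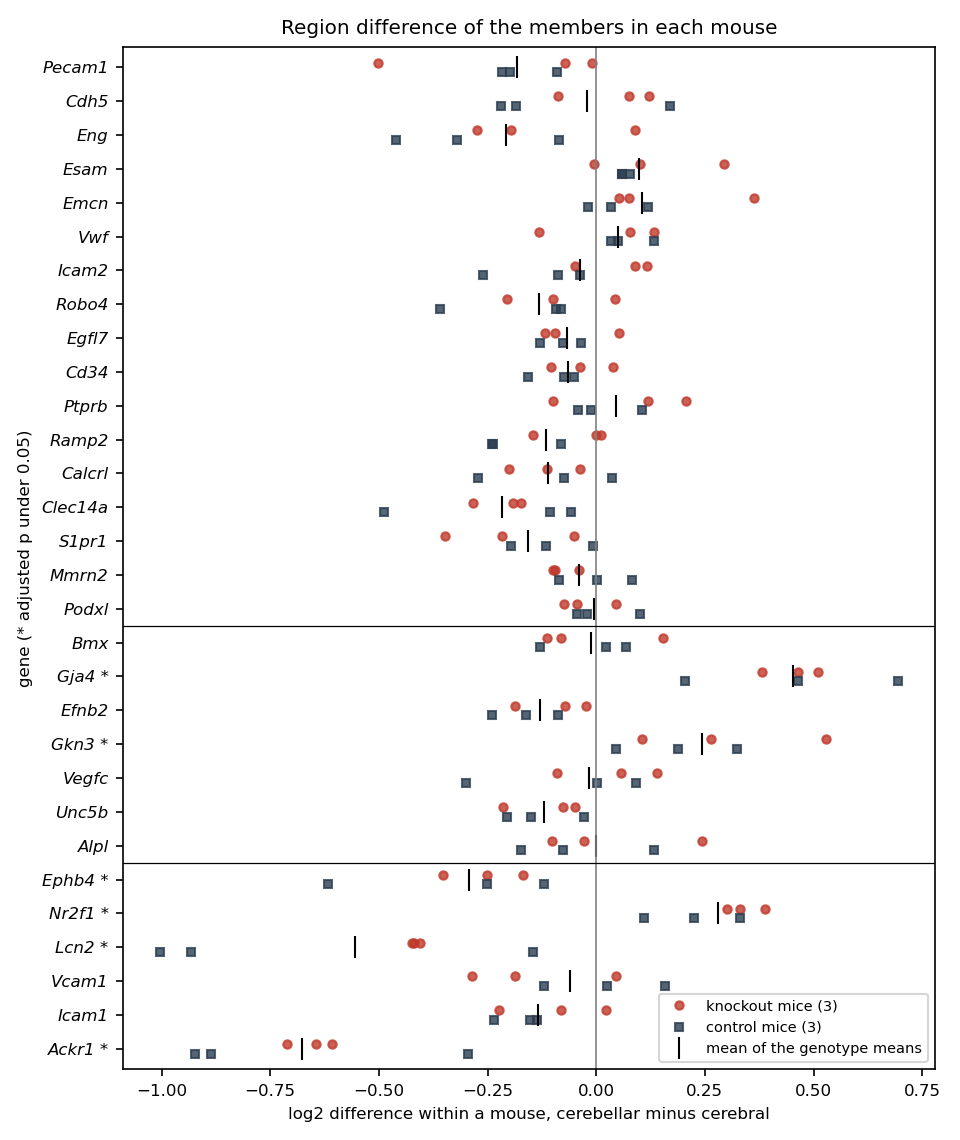
Log2 difference within a mouse, cerebellar minus cerebral (x axis), for each gene that passed the low filter (y axis), with 3 knockout mice (circles), 3 control mice (squares) and the mean of the genotype means (bar). Genes with a star have an adjusted p under 0.05: Gja4, Gkn3 and Nr2f1 to the right of 0, Ephb4, Lcn2 and Ackr1 to its left, in all 6 mice.

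When the regions were compared within each genotype without regard to the mouse, limma called 0 of 30 genes in knockouts (6.8% of all genes) and 0 of 30 in controls (2.29% of all genes). An unadjusted p under 0.05 was reached by 5 genes in knockouts (21.4% of all genes) and by 4 in controls (15.2% of all genes). With the mouse as a fixed block, 3 were called in knockouts (Gja4, adjusted p = 0.0204, Nr2f1, 0.0115, and Ackr1, 0.0143) and 3 in controls (Gja4, 0.0328, Ackr1, 0.0191, and Lcn2, 0.0452). With the mouse as a random block, 2 were called in knockouts (Gja4 and Nr2f1) and 1 in controls (Ephb4). The differing sets of calls do not show that the genotypes differ. The interaction called none, either without pairing the regions of a mouse or with the mouse as a random block.

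Other cell types differed between the regions on the same arrays, and their part in these endothelial differences was not tested. All 11 microglia genes were lower in the cerebellum (median -0.93), and their mean level relative to 12 arrays was -0.48 to -0.25 in knockout cerebellar and 0.51 to 1.15 in knockout cerebral vessels, and -0.74 to -0.35 in control cerebellar and -0.30 to 0.31 in control cerebral vessels. Of 9 pericyte genes 8 were higher in the cerebellum (median 0.76), with mean levels of -0.02 to 0.20 and -0.69 to -0.58 in knockout cerebellar and cerebral vessels, and of 0.47 to 0.73 and -0.15 to 0.07 in control ones. Astrocyte genes had 4 higher and 2 lower of 7, fibroblast genes 4 higher of 7, choroid plexus genes 5 higher of 6 and smooth muscle genes 3 higher of 10. All 9 immediate early genes were higher (median 0.94), as were 5 of 9 genes of the NF-kappaB response, with 1 lower. Neuron and oligodendrocyte genes had 1 lower each of 4, and platelet genes 0 of 3. The endothelial lists differed less: 1 of 21 other endothelial genes was lower (Tal1, -0.24), of 17 other arterial genes Clu was higher (0.18) and Edn1 lower (-0.23), of 10 capillary genes Slc16a1, a lactate transporter, was lower (-0.32), and of 10 other venous genes Csf2rb was lower (-0.64).

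Promoter sequence is shown for 3 artery and vein genes picked by hand, Efnb2, Gja4 and Ephb4, so that their start regions can be set side by side. The windows are the 250 bases before the annotated start in RefSeq (build GRCm38.p6), 5′ to 3′ on the gene's strand: Efnb2 at chr8:8661243-8661492 (minus strand), Gja4 at chr4:127314040-127314289 (minus strand) and Ephb4 at chr5:137349859-137350108 (plus strand). Both strands were searched for TGGGAA, the core bound by RBPJ, the DNA-binding partner of Notch, and for AGGAAG, a core bound by ETS factors, a family that includes Ets1. In these 3 windows neither set of letters was present, so no base is in capitals.
Efnb2: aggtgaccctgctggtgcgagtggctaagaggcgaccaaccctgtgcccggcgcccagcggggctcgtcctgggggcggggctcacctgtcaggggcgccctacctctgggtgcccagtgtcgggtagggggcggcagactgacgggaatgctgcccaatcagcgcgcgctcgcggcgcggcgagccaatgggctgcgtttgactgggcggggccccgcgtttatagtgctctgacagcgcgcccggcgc
Gja4: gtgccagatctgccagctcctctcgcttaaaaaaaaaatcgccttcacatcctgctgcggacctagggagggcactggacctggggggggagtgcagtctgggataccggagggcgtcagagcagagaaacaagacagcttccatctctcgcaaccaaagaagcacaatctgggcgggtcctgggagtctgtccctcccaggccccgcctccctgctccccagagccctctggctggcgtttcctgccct
Ephb4: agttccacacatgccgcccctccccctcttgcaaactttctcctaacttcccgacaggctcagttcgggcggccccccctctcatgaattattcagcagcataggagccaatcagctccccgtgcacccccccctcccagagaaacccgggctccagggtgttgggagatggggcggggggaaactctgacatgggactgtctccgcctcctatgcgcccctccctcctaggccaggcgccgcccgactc

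Of the 36 genes, 24 had at least 1 window in the RefSeq table, 29 windows in all. TGGGAA was present in 4 of the 29 (13.8%), against 21.6% of 32851 promoter windows of the same length. AGGAAG was present in 15 of the 29 (51.7%), against 29.5% of all windows. A match is a description of the letters and not a bound site.

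Lcn2 and Ackr1 differed between mice more than between genotypes or regions. The standard deviation between mice within a genotype was 2.32 for Lcn2 and 1.15 for Ackr1, the 8th and 20th largest of 11716 genes, where the median over all genes was 0.10. Lcn2 was at 8.24, 12.46 and 9.52 in knockout cerebellar and 8.65, 12.88 and 9.94 in knockout cerebral vessels of mice 1 to 3, and at 8.63, 9.71 and 13.75 in control cerebellar and 9.56, 10.71 and 13.90 in control cerebral vessels. Knockout mouse 2 and control mouse 3 were high in both regions, and the other 4 mice lay at 10.71 or lower. Ackr1 was at 8.44, 10.67 and 8.92 in knockout cerebellar and 9.05, 11.31 and 9.63 in knockout cerebral vessels, and at 8.75, 9.44 and 11.25 in control cerebellar and 9.64, 10.36 and 11.54 in control cerebral vessels. Its highest mice were the same, and averaged over regions the 6 mice had the same order for both genes.

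A dimmer probe set of Vcam1 shared this pattern: it was at 10.32 and 10.70 in knockout mouse 2 and at 10.74 and 10.90 in control mouse 3 (cerebellar and cerebral), against 9.05 to 10.23 in the other mice. The brightest Vcam1 probe set, between 13.78 and 14.39, did so less clearly, with 13.93 in the cerebellar vessels of knockout mouse 2. Another dimmer Vcam1 probe set had a narrower range, 9.53 to 10.32 over all arrays, and is not described by mouse here. Icam1 did not share the pattern, at 10.86 and 10.83 in knockout mouse 2 against a range of 10.83 to 11.28 over all arrays. Knockout mouse 2 and control mouse 3 were also the 2 mice without Xist signal (2.87 or lower by its brightest probe set) and with Eif2s3y, a gene of the Y chromosome, at 10.50 to 11.21. With 1 such mouse per genotype, sex and other differences between mice cannot be told apart. With Xist as a covariate, Lcn2 differed between genotypes by -0.71 in cerebellar and -0.93 in cerebral vessels (limma adjusted p = 0.501 and 0.297).

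**Figure D5:**
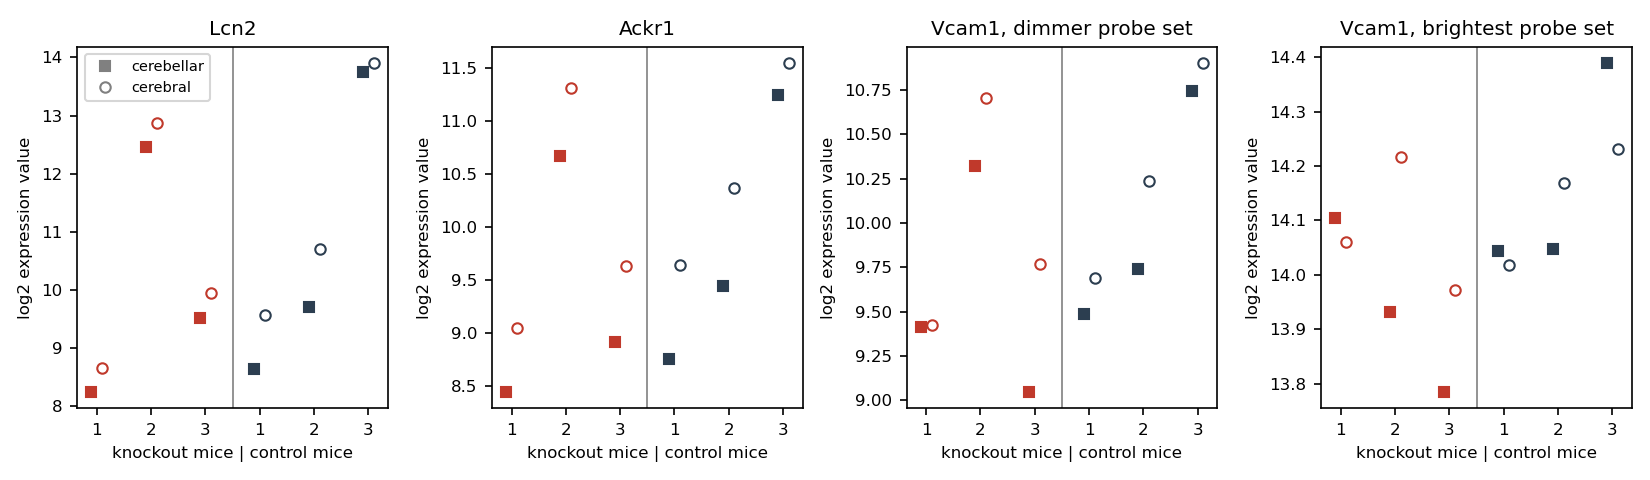
Log2 expression value (y axis) in each mouse (x axis, knockout mice 1 to 3 left of control mice 1 to 3) for Lcn2, Ackr1 and 2 probe sets of Vcam1, with cerebellar arrays as filled squares and cerebral arrays as open circles. Knockout mouse 2 and control mouse 3 are highest for Lcn2 and Ackr1 in both regions, and for these 2 genes the cerebellar value lies below the cerebral one in every mouse.

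The start regions of these 2 genes, which varied together over mice, are shown from the same table: Lcn2 at chr2:32387740-32387989 (minus strand) and Ackr1 at chr1:173333504-173333753 (minus strand). Capitals mark AGGAAG or its reverse complement CTTCCT, and in Ackr1 also TGGGAA. No matches overlapped. Lcn2 had 3 matches to the ETS core, which began 223, 124 and 21 bases before the start, all on the opposite strand. Ackr1 had 3, which began 244, 132 and 66 bases before the start, and TGGGAA 211 bases before it.
Lcn2: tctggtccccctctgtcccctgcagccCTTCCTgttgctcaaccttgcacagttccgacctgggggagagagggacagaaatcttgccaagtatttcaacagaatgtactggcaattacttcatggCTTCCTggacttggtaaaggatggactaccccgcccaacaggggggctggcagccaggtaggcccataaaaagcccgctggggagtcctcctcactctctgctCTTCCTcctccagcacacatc
Ackr1: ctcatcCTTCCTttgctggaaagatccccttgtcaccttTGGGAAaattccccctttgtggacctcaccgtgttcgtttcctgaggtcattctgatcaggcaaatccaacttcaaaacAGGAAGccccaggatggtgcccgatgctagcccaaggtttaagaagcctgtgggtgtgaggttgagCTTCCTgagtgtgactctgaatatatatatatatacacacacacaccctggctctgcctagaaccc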

How the data were processed

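The authors' deposited table gives log2 expression values per probe set, made with GCRMA 2.32.0 per the submitters' processing notes, and these were used without rescaling. Scan dates and detection calls were not used here, and the number of arrays limits the precision. Of 45101 probe sets, 34958 named exactly 1 gene, 932 several and 9211 none, and the 64 control probe sets were left out. The filter kept a probe set with at least 3 of 12 arrays above the median of all values. Each gene was read from its brightest probe set.

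Tests used limma 3.58.1 (R 4.3.3), with moderated variances, two-sided p and Benjamini-Hochberg adjustment over 11716 genes at 0.05. Comparisons between groups used all 12 arrays. Comparisons over mice used the mean, or the difference, of the 2 arrays of a mouse. That both regions came from the same mice follows from the design text, and that arrays with 1 number share a mouse from deviations from group means, which correlated at 0.371 to 0.705 within a number of 1 genotype, above every other pairing of numbers.

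Genes named with values were Notch3, each gene called, the 3 largest differences per class and comparison, and up to 3 genes per other list. The genes and lists were chosen with earlier results of these data known. Scripts were tested on simulated data. Alternatives covered the filter, probe set choice, scaling, variance model, array weights, Xist, blocks and leaving out arrays or mice.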

Additional observations from a re-analysis of the deposited data

How the results depend on the processing

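No gene was called for a region dependence of the knockout effect under any alternative. The knockout calls moved between 0 and 1. In cerebral vessels 1 of 30 (Efnb2) was called with the 75th percentile filter, with array weights, with the mouse as a random replicate block and with the replicate number as a block, and 0 to 1 on leaving out single arrays. In cerebellar vessels 1 was called with the mean of probe sets (Egfl7), and 1 with array weights or the replicate number as a block (Cd34), and 0 to 1 on leaving out single arrays (Efnb2, without knockout mouse 1). Over mice the range was 0 to 1 (Efnb2, without knockout mouse 1). For the region comparison in controls 1 was called with array weights (Gja4) and 1 with the random block (Ephb4). In knockouts 2 were called with the random block. With the fixed block 3 were called in each, and leaving out single arrays left both at 0. Within mice the 6 calls were 2 (Gja4 and Ephb4) with no replicate block on 12 arrays and 4 to 5 on leaving out 1 mouse. They were 4 without the filter (Gkn3 and Ephb4 lost), 8 with it at the 75th percentile (Clec14a, Eng and S1pr1 gained, Ephb4 below it and not tested), 7 with the mean of probe sets or every probe set on its own (Clec14a gained), 6 with quantile normalisation (Clec14a in place of Ephb4) and 5 with Xist as a covariate (Gkn3 lost).

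Of 1290 alternative values of single genes, 27 changed sign, none of them called, and 20 of them of Lcn2 or Ackr1. On leaving out single arrays or mice, Lcn2 between genotypes ranged from -1.81 to 0.90 (cerebellar), -2.10 to 0.35 (cerebral) and -1.95 to 0.63 (over mice), and between regions from -1.61 to 0.78 in knockouts and -2.22 to 0.56 in controls. Its region dependence ranged from -0.98 to 1.81. Ackr1 between genotypes ranged from -1.13 to 0.25 (cerebellar) and -1.16 to 0.12 (over mice), and between regions in knockouts from -1.32 to 0.0040. The runs between regions of 1 genotype and those of the region dependence left out 1 array of a fit that did not pair the regions. Within mice, leaving out 1 mouse gave -0.69 to -0.48 for Lcn2 and -0.78 to -0.62 for Ackr1 between regions, without a change of sign. Unc5b between regions in knockouts ranged from -0.33 to 0.076. Region dependence ranged from -0.061 to 0.17 for Alpl, -0.035 to 0.29 for Gkn3 and -0.016 to 0.27 for Vegfc. Other uncalled estimates between genotypes moved by over 1.5 times without a change of sign, beside those of Clec14a and Gja4. In cerebellar vessels these were Alpl (0.12 to 0.35) and Vcam1 (-0.30 to -0.11). In cerebral vessels they were Nr2f1 (-0.30 to -0.11) and Ackr1 (-1.18 to -0.0043), and over mice Alpl (0.14 to 0.28) and Nr2f1 (-0.23 to -0.074). With array weights Lcn2 differed by 0.23 between genotypes in cerebral vessels, and region dependence was -0.68 for Lcn2 and -0.0088 for Nr2f1. The cause was not tested. With 3 mice per genotype, differences inside the 95% intervals could not be resolved. Replicate numbers do not pair the genotypes: deviations of same-numbered arrays correlated at -0.166 to 0.259, and not every array correlated best with its own number.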
